A study of Mus musculus with 6 samples.

Results

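Mitochondrial ribosomal protein genes were followed in the lungs of mice that breathed hydrogen. They were taken as every probe set whose platform annotation names exactly 1 gene, with a symbol that starts with Mrpl or Mrps and a number. This rule used no measured value. It found 129 probe sets of 73 genes, out of 45037 probe sets and 17097 single-gene symbols on the array. Of these genes, 35 had 1 probe set and 38 had several, up to 4. The hydrogen group was 3 male BALB/c mice kept for 3 weeks in air with 2% molecular hydrogen, and the control group was 3 BALB/c males in normal air. The labels give an age of 10 weeks at the start and no genetic change in either group. Whole-lung RNA of each mouse was hybridised to its own oligonucleotide array, so precision is limited by having 3 arrays a group. The values are log2 signals, and a change is hydrogen minus control on that scale.

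Mitochondria carry their own ribosome, which translates only the few proteins encoded in mitochondrial DNA, all of them subunits of the respiratory chain and ATP synthase. Its proteins are encoded in the nucleus, made in the cytosol and imported. Some have counterparts in the bacterial ribosome, and others are found only in mitochondria. The large subunit forms peptide bonds and the small subunit decodes the messenger RNA. Because both genomes must supply respiratory complexes in step, factors such as NRF1, GABP (an ETS family factor) and YY1 are known to act on many nuclear genes for mitochondrial proteins.

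The start regions of 5 members are shown, since the members were measured together and differed in direction: 4 with large falls (Mrpl44, Mrps21, Mrpl39 and Mrpl42) and Mrps26, the brightest probe set among those that rose. They were picked after their values were seen. Each sequence is the RefSeq window of GRCm38.p6, from 250 bases before to 50 bases after the gene's start, in the gene's 5′ to 3′ direction. It is the C57BL/6J reference and not the sequence of these BALB/c mice. Capitals mark the letters GCGCANGCG (an NRF1-like core), CCGGAAG (an ETS core) or AAGATGGC (a YY1-like motif) on either strand. The windows are Mrpl44 at chr1:79775768-79776067 (plus strand), Mrps21 at chr3:95871465-95871764 (minus strand), Mrpl39 at chr16:84735195-84735494 (minus strand), Mrpl42 at chr10:95501900-95502199 (minus strand) and Mrps26 at chr2:130563507-130563806 (plus strand).
Mrpl44: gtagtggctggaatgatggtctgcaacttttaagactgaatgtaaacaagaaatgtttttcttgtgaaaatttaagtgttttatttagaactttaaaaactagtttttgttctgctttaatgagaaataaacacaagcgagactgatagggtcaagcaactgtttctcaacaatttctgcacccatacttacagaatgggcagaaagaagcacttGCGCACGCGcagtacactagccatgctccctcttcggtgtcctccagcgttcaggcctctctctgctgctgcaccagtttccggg
Mrps21: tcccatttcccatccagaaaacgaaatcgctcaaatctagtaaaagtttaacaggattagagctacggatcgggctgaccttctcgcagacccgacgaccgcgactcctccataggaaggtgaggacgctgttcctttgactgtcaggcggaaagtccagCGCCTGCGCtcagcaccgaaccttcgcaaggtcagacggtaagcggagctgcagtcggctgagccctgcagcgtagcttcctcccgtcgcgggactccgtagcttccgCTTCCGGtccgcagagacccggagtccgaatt
Mrpl39: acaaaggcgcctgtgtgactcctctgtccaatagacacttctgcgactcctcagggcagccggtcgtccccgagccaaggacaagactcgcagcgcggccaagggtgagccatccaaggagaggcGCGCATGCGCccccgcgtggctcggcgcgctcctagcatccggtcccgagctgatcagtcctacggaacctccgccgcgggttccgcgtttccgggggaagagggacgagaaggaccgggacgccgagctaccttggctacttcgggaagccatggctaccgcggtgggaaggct
Mrpl42: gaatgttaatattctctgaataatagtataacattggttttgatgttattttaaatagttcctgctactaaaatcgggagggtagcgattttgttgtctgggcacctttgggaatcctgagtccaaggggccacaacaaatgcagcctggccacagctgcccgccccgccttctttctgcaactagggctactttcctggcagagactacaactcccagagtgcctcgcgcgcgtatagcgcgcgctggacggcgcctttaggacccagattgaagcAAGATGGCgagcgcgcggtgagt
Mrps26: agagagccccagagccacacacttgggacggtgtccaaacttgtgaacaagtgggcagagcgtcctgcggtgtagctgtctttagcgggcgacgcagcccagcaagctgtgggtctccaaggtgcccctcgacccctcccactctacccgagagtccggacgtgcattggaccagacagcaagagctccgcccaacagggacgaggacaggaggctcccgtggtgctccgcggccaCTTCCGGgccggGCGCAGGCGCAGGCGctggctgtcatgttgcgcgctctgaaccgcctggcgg
The NRF1-like core began at -35 from the start of Mrpl44 and at -90 from that of Mrps21, which also held the ETS core at 19. Mrpl39 held overlapping NRF1-like cores on opposite strands from -125 and -124. Mrpl42 held the YY1-like motif at 28. Mrps26 held the ETS core at -14 and NRF1-like cores from -2 and 5.

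Windows were found for 65 of the 73 genes, 71 windows in all. The NRF1-like core was in 14 of the 71 windows (19.7%) against 6.25% of all 32851 promoter windows of the table. The ETS core was in 23 (32.4%) against 8.86%, and the YY1-like motif in 12 (16.9%) against 2.75%. Any of the 3 was in 40 windows (56.3%) against 16.0%. The median GC content was 59% in the members' windows and 52.7% in all windows. Of the 41 genes with a window whose brightest probe set fell, 23 held at least 1 of the motifs, and of all 65 genes 40 did. A match describes letters in a window and says nothing about binding.

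Most bright members were lower in the hydrogen group, by small amounts. Of the 129 probe sets, 57 were called lower and 13 higher, and 59 were not called, where called means a limma p under 0.05 after Benjamini-Hochberg adjustment over all 45037 probe sets. Among all probe sets 22.8% were lower and 24.3% higher. The members' median change was -0.15, against 0.02 over all probe sets, and their changes ran from -0.73 to 0.63. Only 7 of the falls and 3 of the rises reached 0.5. Hydrogen and control values lay fully apart for 88 members (68.2%), 67 of them lower in hydrogen and 21 higher, as they did for 57.3% of all probe sets. The split of calls depended on scaling: it was 17 higher and 31 lower after cyclic loess (all probe sets 17.0% and 18.4%) and 20 higher and 26 lower after renewed quantile normalisation (18.7% and 16.8%). With arrays centred on their medians 7 were higher and 74 lower, and the share of all probe sets called there was not counted.

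Falls of this size were common among all probe sets as bright as the members. All probe sets were divided into 20 bins of equal size by their mean log2 value over the 6 arrays. The median change of the bins was up to 0.16 among dim probe sets and down to -0.23 among bright ones. Of the members 44.2% were lower and 10.1% higher, against 37.6% and 17.3% of all probe sets with the bins weighted by their number of members. Less the median of its own bin, the median member change was -0.05, with 72 members below and 55 above their bin's median. Above the median brightness of 4.80, 56 of 105 members fell and 6 rose (53.3% lower, against 38.2% of all bright probe sets). These shares are not matched for brightness within the bright ones. The bright members had a median brightness of 7.06, against 6.51 for all bright probe sets. In the bin that holds 7.06, 52.3% of all probe sets fell and 7.37% rose. At or below 4.80, 1 of 24 members fell and 7 rose (29.2% higher, against 32.0% of all dim probe sets).

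**Figure D1:**
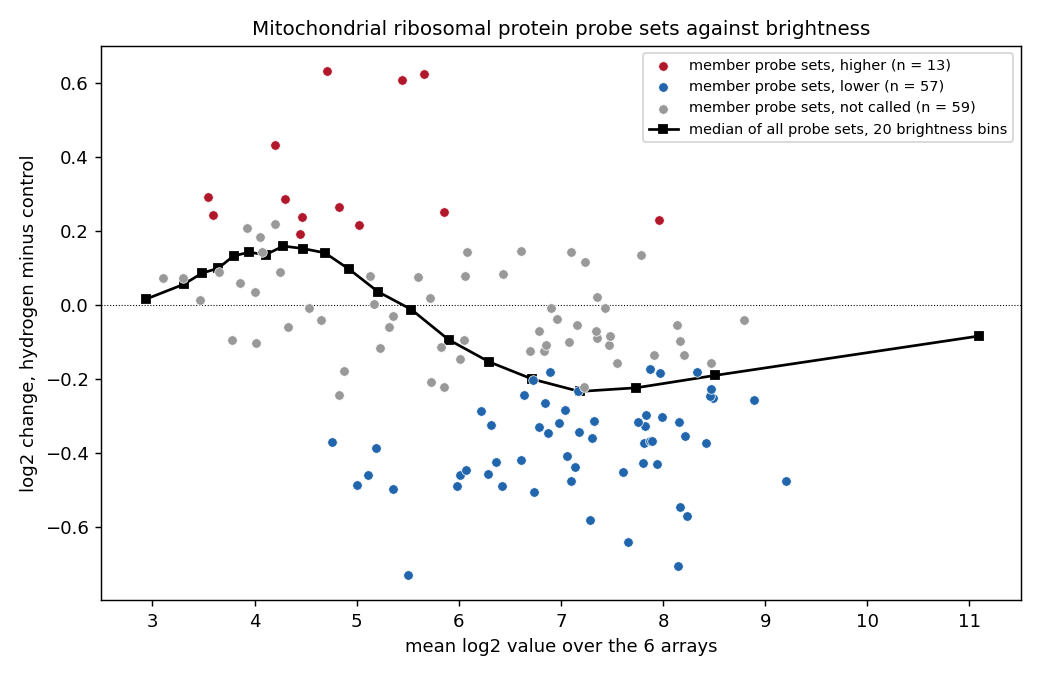
Change of each of the 129 member probe sets (hydrogen minus control, log2) against its mean log2 value over the 6 arrays, coloured by call, with the median of all probe sets in 20 bins of brightness as black squares. The 57 lower members lie mostly on the bright side, where the bin medians reach -0.23, and 12 of the 13 higher members lie below a mean of 6.

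The members that fell most moved by more than their bin. Mrpl44, a large-subunit protein related to RNase III enzymes, had 7.70, 7.90 and 7.79 in hydrogen lungs, against 8.49, 8.56 and 8.46 in control lungs. No hydrogen array came near the controls, and the change was -0.71 (SE 0.07, limma adjusted p = 0.000305), against a bin median of -0.19. A dimmer probe set of Mrpl44 had 5.77, 5.70 and 5.77 in hydrogen lungs and 6.34, 6.01 and 5.55 in control lungs. There the controls spread on both sides of the hydrogen values, and the change of -0.22 was not called (adjusted p = 0.302), although it was without control replicate 3 (-0.43, adjusted p = 0.012).

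Mrpl50, a mitochondria-specific protein of the large subunit, had the largest fall. Its values were 4.94, 5.17 and 5.31 in hydrogen lungs and 5.70, 6.08 and 5.83 in control lungs (change -0.73, SE 0.12, adjusted p = 0.00184). The groups did not overlap. Its brighter probe set fell as well, by 0.32 (adjusted p = 0.0032), with 6.16, 6.13 and 6.18 in hydrogen lungs and 6.51, 6.54 and 6.39 in control lungs.

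Mrps21, the counterpart of a bacterial small-subunit protein, had 7.30, 7.29 and 7.43 in hydrogen lungs, against 8.02, 8.05 and 7.87 in control lungs (change -0.64, SE 0.07, adjusted p = 0.00045). Mrpl53, a mitochondria-specific large-subunit protein, had 7.93, 7.84 and 7.91 in hydrogen lungs, against 8.40, 8.46 and 8.46 in control lungs (change -0.55, SE 0.05, adjusted p = 0.000353). In both genes every hydrogen array lay below every control array. Mrpl42, a large-subunit protein once assigned to the small subunit, had 8.09, 7.84 and 7.93 in hydrogen lungs, against 8.57, 8.48 and 8.52 in control lungs (change -0.57, adjusted p = 0.000757). Its other probe set was dim, at 3.47 in hydrogen and 3.46 in control lungs, and was not called (0.01).

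Mrpl39, a mitochondria-specific protein of the large subunit, fell at both of its probe sets, by 0.58 (adjusted p = 0.000748) and by 0.48 (adjusted p = 0.000612). The first had 7.10, 7.01 and 6.86 in hydrogen lungs and 7.64, 7.51 and 7.56 in control lungs, and the brighter one had 8.94, 8.93 and 9.02 in hydrogen lungs and 9.48, 9.46 and 9.38 in control lungs. Neither pair of groups overlapped. Mrps10, the counterpart of a bacterial small-subunit protein, had 6.54, 6.50 and 6.41 in hydrogen lungs and 7.25, 6.86 and 6.86 in control lungs (change -0.51, adjusted p = 0.00551). Less their bin medians, the falls of Mrpl50, Mrpl44, Mrps21, Mrpl39, Mrpl42, Mrpl53 and Mrps10 ran from -0.72 to -0.31 at the probe sets with the larger change.

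Over the 12 alternatives that keep every probe set (other scalings, fits and each array left out), 23 of the 57 falls and 6 of the 13 rises were called in the same direction each time. The same count was not made over all probe sets, so these numbers do not set the members apart. The 23 included both probe sets of Mrpl50 and Mrpl39, 2 of the 3 probe sets of Mrpl41 (the other had 0.09 and was not called), and probe sets of Mrps9, Mrps22, Mrps23, Mrps25, Mrps33, Mrpl1, Mrpl18, Mrpl27, Mrpl35 and Mrpl48. Other probe sets of Mrps9 (-0.22 and -0.11), Mrps25 (-0.24 and 0.14), Mrpl1 (-0.21 and 0.07) and Mrpl48 (0.12) were not called. Nor were those of Mrps23 (0.15 and 0.08), but its brightest was called higher after cyclic loess (0.31, limma adjusted p = 0.00596). The other probe set of Mrpl27 fell (-0.25), and of Mrpl35 a brighter one fell (-0.37) while another was not called (-0.06). A two-sided exact permutation of 3 against 3 arrays cannot go below p = 0.1, so calls of single members rest on limma.

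**Figure D2:**
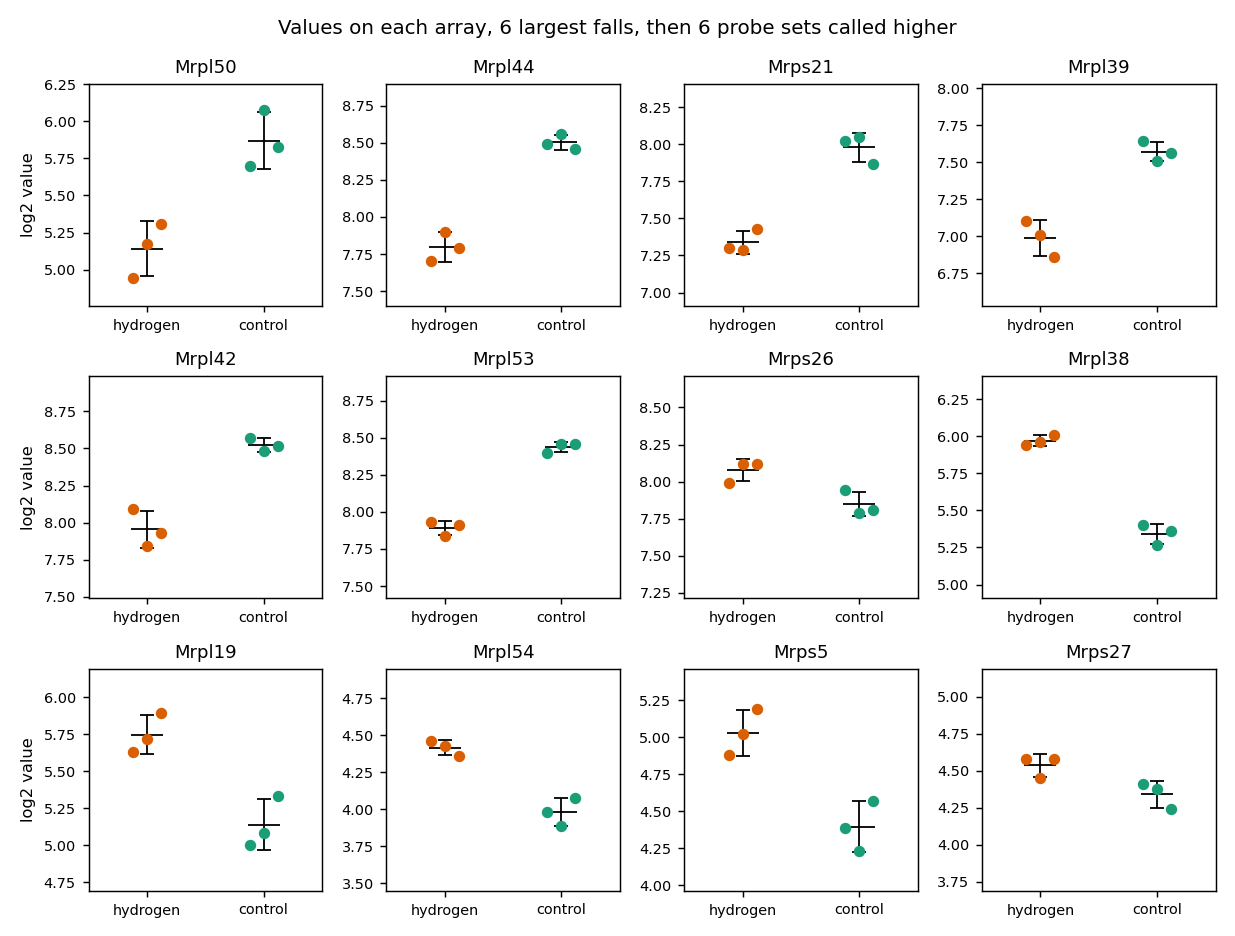
Log2 value on each array (points) with mean and SD (bars, n = 3 each) for the 6 largest falls by probe set and 6 probe sets called higher, hydrogen left of control. Each panel spans the same range of log2 values. In all 12 panels the 3 hydrogen values lie on one side of the 3 control values.

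Of the 13 probe sets that rose, 7 were dim and 12 lay below a mean of 6. Mrpl38, a mitochondria-specific protein of the large subunit's central protuberance, had 5.94, 5.96 and 6.01 in hydrogen lungs, against 5.40, 5.27 and 5.36 in control lungs (change 0.63, SE 0.06, adjusted p = 0.000299). The groups were clearly separated, but its other probe sets were not called, with changes of -0.12 and 0.09. Mrps5, the counterpart of a bacterial small-subunit protein, had 4.88, 5.02 and 5.19 in hydrogen lungs and 4.39, 4.23 and 4.57 in control lungs at 1 probe set (change 0.63, SE 0.10, adjusted p = 0.00199). Its 3 other probe sets had changes of -0.18, -0.04 and 0.08 and were not called. The first of these was called lower without control replicate 2 (-0.28, adjusted p = 0.0299), and the brightest of these was called higher after cyclic loess (0.18, adjusted p = 0.0405) and after renewed quantile normalisation (0.20, adjusted p = 0.0251). Mrpl54, a mitochondria-specific large-subunit protein, rose by 0.43 at a dim probe set (adjusted p = 0.00143), with 4.46, 4.43 and 4.36 in hydrogen lungs and 3.98, 3.89 and 4.08 in control lungs. Its brighter probe set had 5.73 in hydrogen lungs and 5.71 in control lungs and was not called (0.02).

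Mrps26 was the only bright member, above a mean of 6, that rose. This small-subunit protein, specific to mitochondria, had 7.99, 8.12 and 8.12 in hydrogen lungs, against 7.94, 7.79 and 7.81 in control lungs (change 0.23, SE 0.07, adjusted p = 0.0211). The lowest hydrogen value lay just above the highest control value. The median of its bin was -0.22, and the change after cyclic loess was 0.43. Mrps27, a small-subunit protein with pentatricopeptide repeats, had 4.58, 4.45 and 4.58 in hydrogen lungs and 4.41, 4.38 and 4.24 in control lungs (change 0.19, adjusted p = 0.0447). That is close to its bin's median of 0.15, and the call was lost after cyclic loess (0.05, adjusted p = 0.63) and without hydrogen replicate 1, hydrogen replicate 3, control replicate 2 or control replicate 3 (0.14 to 0.21).

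Probe sets of the same gene did not always agree. For 7 of the 38 genes with several, 1 probe set was called higher and another lower: Mrpl14, Mrpl15, Mrpl19, Mrpl58, Mrps2, Mrps10 and Mrps15. The share of such genes over the whole array was not counted, so this cannot be read as particular to the members. Mrpl19, the counterpart of a bacterial large-subunit protein, had 6.23, 6.21 and 6.10 in hydrogen lungs and 6.76, 6.67 and 6.58 in control lungs at its brightest probe set (change -0.49, adjusted p = 0.000975). A second one, with 5.63, 5.72 and 5.89 in hydrogen lungs and 5.00, 5.08 and 5.33 in control lungs, rose by 0.61 (adjusted p = 0.00192). A further one had 5.17, 5.11 and 5.03 in hydrogen lungs and 5.81, 5.54 and 5.45 in control lungs and fell by 0.50 (adjusted p = 0.00358), and the fourth was not called (0.07). The files do not say which part of the transcript each probe set reads.

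In the other 6 genes the brighter probe set fell and the dimmer one rose. Over all probe sets, too, the bin medians were up to 0.16 among dim ones and down to -0.23 among bright ones. Mrpl58, which encodes the peptidyl-tRNA hydrolase also known as ICT1, had -0.30 (adjusted p = 0.00754) and 0.24 (adjusted p = 0.017). Its brighter probe set had 7.92, 7.70 and 7.88 in hydrogen lungs and 8.15, 8.13 and 8.13 in control lungs, and the dim one had 3.66, 3.74 and 3.73 in hydrogen lungs and 3.44, 3.58 and 3.38 in control lungs. Mrpl15, the counterpart of a bacterial large-subunit protein, is the pair closest in brightness. Its probe sets had 6.29, 5.95 and 5.92 in hydrogen lungs and 6.78, 6.37 and 6.38 in control lungs (change -0.46, adjusted p = 0.0223), and 5.94, 6.05 and 5.95 in hydrogen lungs and 5.75, 5.74 and 5.69 in control lungs (change 0.25, adjusted p = 0.00732). The groups did not overlap at either probe set of either gene. Mrpl14 had -0.32 and 0.29, Mrps15 had -0.32 and 0.27 with a further probe set at -0.01, Mrps2 had -0.20 and 0.29, and Mrps10 had -0.51 and 0.24. The riser of Mrps10 had 4.55, 4.61 and 4.58 in hydrogen lungs and 4.37, 4.15 and 4.50 in control lungs (adjusted p = 0.049). After cyclic loess neither probe set of Mrpl58, Mrps2 or Mrps15 was called, and of these 6 genes only the riser of Mrpl15 (0.32), that of Mrpl14 (0.21) and the faller of Mrps10 (-0.33) kept their calls. Leaving out 1 array also ended calls: the faller of Mrps2 without control replicate 1 (-0.18), control replicate 2 (-0.20) or hydrogen replicate 3 (-0.17), the faller of Mrpl15 without hydrogen replicate 2 (-0.41), hydrogen replicate 3 (-0.39) or control replicate 1 (-0.32), the riser of Mrpl58 without hydrogen replicate 2 or control replicate 1 (both 0.23), and the riser of Mrps10 without any of the 6 arrays but control replicate 3 (0.15 to 0.26). With the mean over a gene's probe sets Mrps2 turned to 0.04 (adjusted p = 0.48). Over all 73 genes, 42 had falls alone, 6 had rises alone (Mrpl21, Mrpl38, Mrpl54, Mrps5, Mrps26 and Mrps27), 7 had both and 18 had no call. This split was not counted over all genes of the array or weighed against brightness. It cannot be read as particular to the members.

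**Figure D3:**
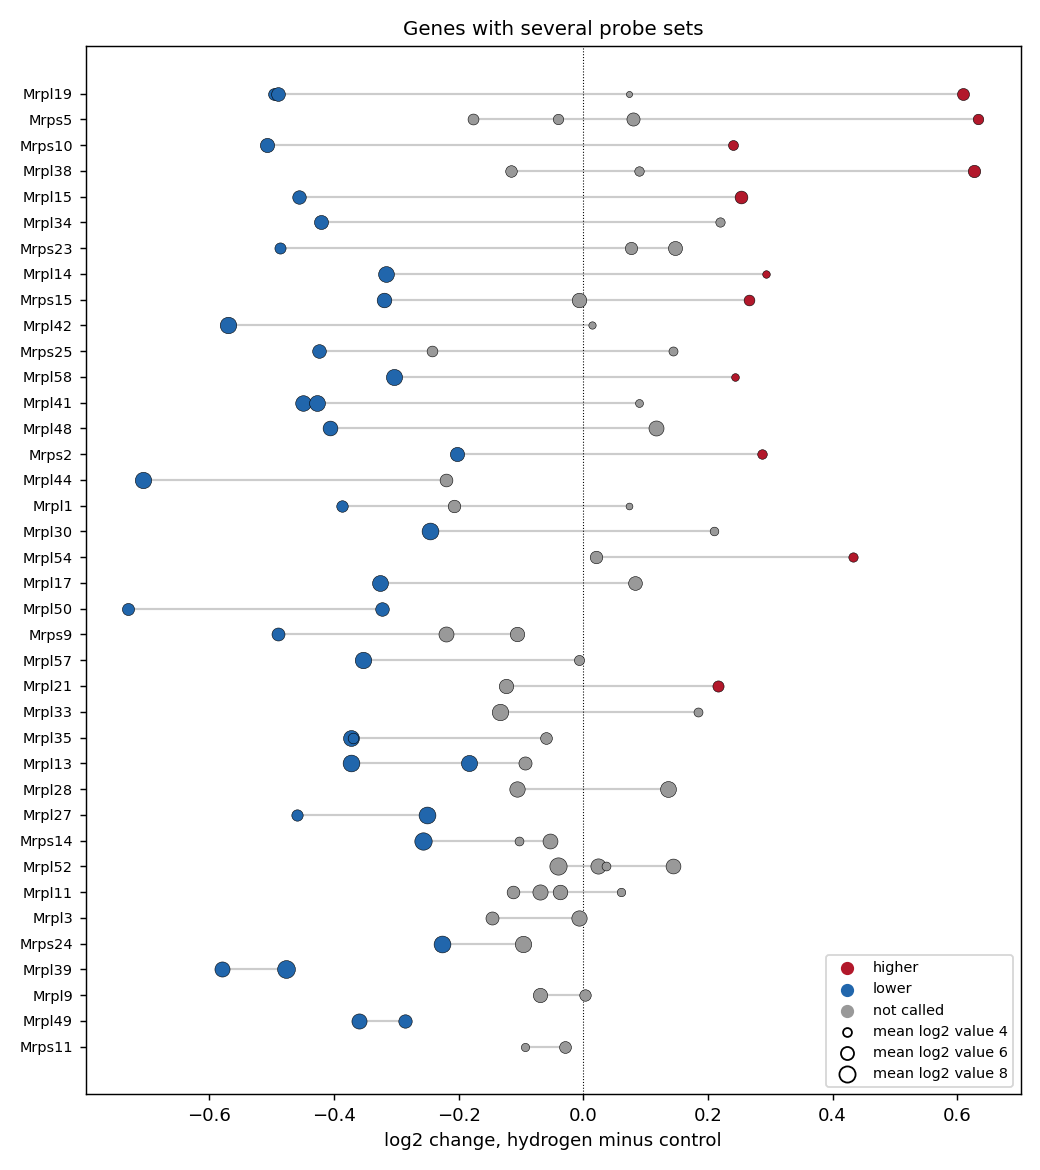
Change of every probe set of the 38 member genes with several (hydrogen minus control, log2), 1 row per gene, ordered by the spread between its probe sets, with point size for mean log2 value and colour for the call. The widest spread is that of Mrpl19, from -0.50 to 0.61, and 7 genes carry both a higher and a lower call.

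Calls were also counted by kind of probe set, with no test of the difference between kinds. By Affymetrix naming, an ID that ends in x_at marks probes that also match other transcripts. None of the 9 x_at members was called (limma, median change 0.02, unadjusted p of 1 of the 9 under 0.05), and 7 of the 9 lay above their bin's median. Among all x_at probe sets of the array 19.7% fell and 22.1% rose. After cyclic loess 4 of the 9 were called higher, those of Mrpl11 (0.15), Mrpl28 (0.34), Mrpl48 (0.31) and Mrpl52 (0.22), and none lower. Of all 2441 x_at probe sets 608 were then higher and 381 lower. Of the 29 a_at members, whose probes match several transcripts of 1 gene, 16 fell (55.2%) and none rose, against 29.7% and 19.9% of all a_at probe sets. Of the 85 at members 39 fell and 13 rose (45.9% and 15.3%), against 21.5% and 25.6% of all at probe sets. These shares are not matched for brightness. The a_at members had a median brightness of 7.30, against 6.01 for all a_at probe sets. In the bin that holds 7.30, 52.3% of all probe sets fell and 7.37% rose. The at members had 6.365, against 4.62 for all at probe sets. In the bin that holds 6.365, 40.8% of all probe sets fell and 14.4% rose. Of the 6 s_at members, whose probes are shared between genes, 2 fell (33.3%, against 34.4% of all s_at probe sets) and none rose (against 14.8%). After cyclic loess 7 a_at members were lower and 2 higher, against 914 and 811 of all 4426 a_at probe sets. Of the at members 23 were lower and 11 higher, against 6509 and 5867 of all 36082 at probe sets. Of the s_at members 1 was lower and none higher, against 479 and 349 of all 2088 s_at probe sets. Mrpl48, chosen after its values were seen, shows such a pair, with -0.41 (adjusted p = 0.00163) at the at probe set and 0.12 (adjusted p = 0.243) at the x_at one, both bright.

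By place in the ribosome the classes had like medians when each gene stood for its brightest probe set. Of these 73 probe sets 45 fell and 3 rose (61.6% and 4.11%), where 25.9% of the 17097 brightest probe sets of all genes fell and 25.5% rose. Those 17097 are not matched to the members for brightness. In the bin that holds the members' median brightness of 7.30, 52.3% of all probe sets fell and 7.37% rose. After cyclic loess 19 of the 73 were lower and 8 higher, against 16.1% and 20.5% of all brightest probe sets. Of 28 large-subunit proteins with a bacterial counterpart, 17 fell and none rose (median -0.25). Of 20 large-subunit proteins specific to mitochondria, 13 fell and 1 rose (median -0.28). Of 14 small-subunit proteins with a bacterial counterpart, 9 fell and none rose (median -0.22), and of 10 specific to mitochondria 5 fell and 2 rose (median -0.23). The medians of the matching bins were -0.20 for all classes but the mitochondria-specific large-subunit proteins, at -0.19. In the same order of classes, cyclic loess left 6 lower and 2 higher, 7 lower and 2 higher, 3 lower and 1 higher, and 3 lower and 3 higher.

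Proteins at functional sites were not uniform. Mrpl12, the stalk protein that contacts translation factors, had 7.22, 7.16 and 7.12 in hydrogen lungs and 7.51, 7.40 and 7.53 in control lungs (change -0.31, adjusted p = 0.00384), and it was not called after cyclic loess (-0.11, adjusted p = 0.175). The stalk base proteins were not called: Mrpl10 had -0.10 (adjusted p = 0.21) and the brightest probe set of Mrpl11 had -0.07 (adjusted p = 0.438), both nearer 0 than their bin's median of -0.23. Their signs turned after cyclic loess (0.09 and 0.13) and after renewed quantile normalisation (0.13 and 0.16), also without a call. Mrpl3, which lies near the peptidyl transferase centre, had 7.46, 7.42 and 7.39 in hydrogen lungs and 7.53, 7.39 and 7.37 in control lungs. Those values overlapped entirely (change -0.01, adjusted p = 0.937), yet the same probe set was called higher after cyclic loess (0.19) and after renewed quantile normalisation (0.22).

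On the small subunit, Mrps12, the decoding-centre protein, had -0.09 (adjusted p = 0.279), and Mrps34, which mice need for a stable small subunit, had -0.13 (adjusted p = 0.084). Neither was called, and their signs turned after cyclic loess (0.11 and 0.06) and after renewed quantile normalisation (0.14 and 0.09), again without a call. Mrps7, a protein of the small subunit's head, fell by 0.44 (adjusted p = 0.00619), with 6.91, 6.86 and 7.00 in hydrogen lungs and 7.53, 7.16 and 7.39 in control lungs. Mrps22, a mitochondria-specific protein altered in inherited human disease, fell by 0.45 (adjusted p = 0.000727), with 5.85, 5.83 and 5.86 in hydrogen lungs and 6.25, 6.26 and 6.37 in control lungs. Both sets of values were apart, but after cyclic loess only Mrps22 was called (-0.35), while Mrps7 had -0.24 (adjusted p = 0.0654).

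Some symbols do not match the place of the protein. Mrps30 and Mrps18a, now placed in the large subunit, had -0.18 (adjusted p = 0.0448) and -0.16 (adjusted p = 0.0756), and their signs turned, with no call, after cyclic loess (0.0045 and 0.04) and after renewed quantile normalisation (0.03 and 0.07). The call of Mrps30 was also lost without hydrogen replicate 1, hydrogen replicate 2, control replicate 1 or control replicate 2 (-0.19 to -0.14), and Mrps18a was called without control replicate 2 (-0.21, adjusted p = 0.0351). Mrps18b, of the small subunit, had 0.14 (adjusted p = 0.0573), and 0.24 after cyclic loess, where it was called (adjusted p = 0.0086). Mrps36, now regarded as a subunit of the 2-oxoglutarate dehydrogenase complex, fell by 0.34 (adjusted p = 0.00388), with 7.01, 6.95 and 7.06 in hydrogen lungs and 7.30, 7.46 and 7.29 in control lungs. It was not called after cyclic loess (-0.15, adjusted p = 0.117).

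The member shift was alike in the 3 hydrogen mice. Less the control mean, the median of the 105 bright members was -0.22, -0.22 and -0.21 in hydrogen replicates 1, 2 and 3, against 0.05, -0.01 and -0.03 in control replicates 1, 2 and 3. All bright probe sets had -0.11, -0.12 and -0.11 in the same hydrogen arrays, but they are not matched to the members for brightness. Their median brightness was 6.51, against 7.06 for the bright members. The matching bins of the 105 members had a median of -0.20, and less its own bin the median change was -0.06. Within groups the members were steady, with a median SD of 0.06 in hydrogen and 0.08 in control lungs.

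Other tissue in the samples also differed between the groups. The alveolar markers were bright in all arrays, as for lung, with Sftpc, a surfactant protein, at 13.17 in hydrogen and 13.15 in control lungs. All 13 heart muscle markers measured were lower in hydrogen lungs (median -1.89), and their summed signal was 969.7 to 3942 in hydrogen and 7832 to 9627 in control lungs. Heart muscle is rich in mitochondria. The median of the heart markers less the control mean was -1.13, -2.58 and -1.45 in hydrogen replicates 1, 2 and 3. The white fat markers had 0.10, -4.08 and -2.15 in the same mice. Ciliated cell markers fell in 6 of 7 cases (median -0.58) and alveolar type 1 markers in 4 of 5 (median -0.17), while 3 of 5 B cell markers and 3 of 7 T cell markers rose and 1 T cell marker fell. Of 6 club cell markers 3 fell, of 7 capillary markers 2 fell, of 5 macrophage markers 1 fell, of 6 brown fat markers 3 fell and 2 rose, of 5 white fat markers 1 fell and 1 rose, and of 7 alveolar type 2 markers 2 rose. After cyclic loess all 13 heart markers were again lower, while no capillary, macrophage or T cell marker was lower and no fat marker was higher. Without hydrogen replicate 2, 47 members were called lower and 9 higher, and the share of all probe sets called there was not counted. What these differences contribute to the members' changes was not tested. In whole lung, fewer cells of a type and less RNA per cell cannot be told apart. The labels give no batch, so a batch that follows the groups cannot be told apart from the exposure.

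Other genes of mitochondrial translation did not all move the same way, each read at its brightest probe set. The mitoribosomal genes with other symbols fell in 3 of 4 cases (median -0.29, against -0.21 for their bins). The fallers were Ptcd3 (-0.63), a pentatricopeptide repeat protein of the small subunit, Dap3 (-0.31) and Gadd45gip1 (-0.27), the last at a dim probe set. After cyclic loess Dap3 was not called (-0.11, adjusted p = 0.325) and the other 2 were. Of 23 assembly factors measured, 7 fell and 4 rose (median -0.01, against -0.09 for their bins), and after cyclic loess 5 fell and 6 rose. They included the fallers Mterf3 (-0.50) and the RNA-binding protein Fastkd2 (-0.44) and the riser Gtpbp6 (0.56), a GTPase. Of 8 translation factors, 2 fell and 2 rose (median 0.08, against -0.15 for their bins). The elongation factor Gfm1 (-0.46) and the initiation factor Mtif2 (-0.42) fell, and the elongation factor Tsfm rose (0.37). After cyclic loess the count was again 2 each way. Of 19 mitochondrial tRNA synthetases and related enzymes 5 fell and 5 rose (median -0.07, against -0.09 for their bins). Tars2 (0.57) and Aars2 (0.44), which charge threonine and alanine tRNAs, were higher and the formyltransferase Mtfmt (-0.41) was lower. After cyclic loess 2 of these 19 fell and 3 rose.

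Genes of mitochondrial DNA upkeep and transcription fell in 8 of 15 cases and rose in 2 (median -0.27, against -0.15 for their bins), and after cyclic loess 5 fell and 3 rose. Polrmt, the mitochondrial RNA polymerase, had 6.41 in hydrogen lungs and 7.23 in control lungs (change -0.82, SE 0.07, adjusted p = 0.000255). Pnpt1, the RNA-degrading polynucleotide phosphorylase, fell by 0.87 (adjusted p = 0.000465) and the DNA polymerase gene Polg by 0.42 (adjusted p = 0.000847). A list of 13 genes of the mitochondrial genome itself matched no single-gene symbol of the annotation, so their transcripts were not analysed here.

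Nuclear respiratory chain subunits and cytosolic ribosomal proteins were set beside the members. Of 64 respiratory chain and ATP synthase subunits 42 fell and none rose (median -0.25, against -0.08 for their bins), and after cyclic loess 23 fell and 1 rose. The 3 with the smallest p were the complex I genes Ndufv1 (-0.58) and Ndufs7 (-0.44) and the complex III gene Cyc1 (-0.54). Of 64 cytosolic ribosomal proteins 2 fell and 7 rose (median 0.04, against -0.08 for their bins), with Rpl36 (0.43) and Rps12 (0.31) higher and Rps21 (-0.26) lower, and after cyclic loess 2 fell and 9 rose. Their median brightness was 11.55, against 7.30 for the brightest probe sets of the members. Whether the members differ from either list was not tested.

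**Figure D4:**
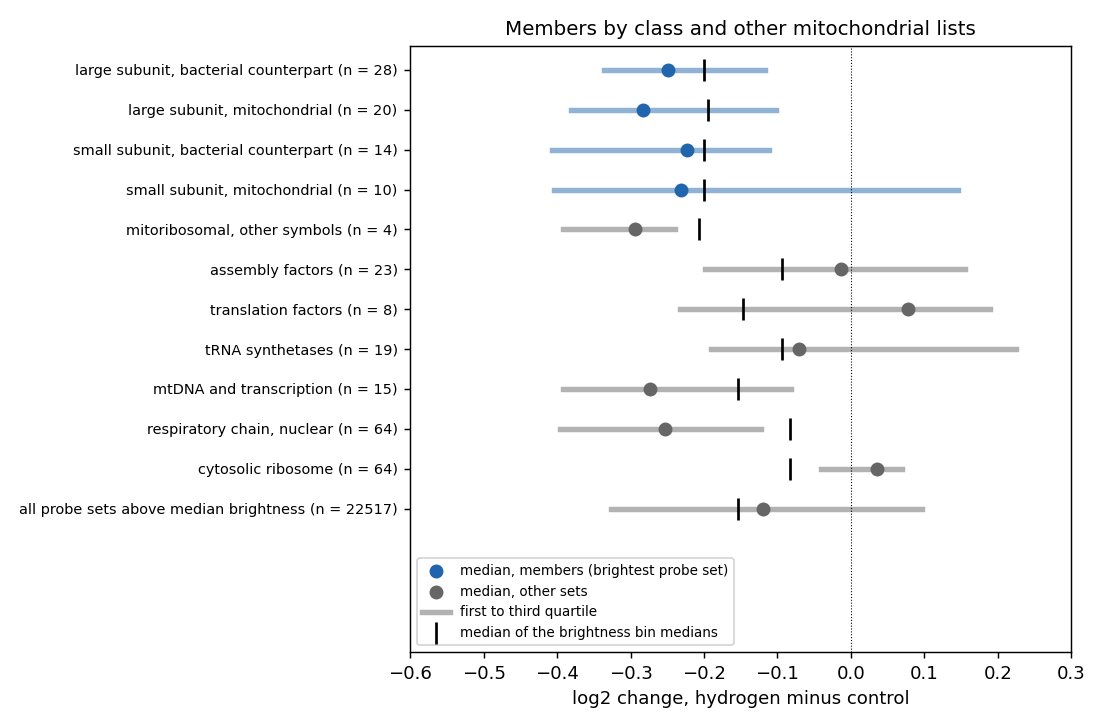
Median change (points) with the lower to upper quartile (bars) of the members by class and of the other lists, each gene at its brightest probe set, and the median of the matching brightness bin medians (black ticks), with all bright probe sets at the foot. The 4 member classes have medians of -0.28 to -0.22 beside ticks near -0.20, and the respiratory chain subunits have -0.25 beside a tick at -0.08.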

How the data were processed

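The labels count 6 arrays, 1 per mouse, in 2 groups of 3. Per the submitters' processing notes, the deposited log2 values per probe set were made by the authors with RMA and Affymetrix Expression Console; whether in 1 run is not given in the sources used here. RMA corrects background, equalises the arrays' distributions and summarises probes on a log scale. The medians of the arrays were 4.75 to 4.85. The deposited distributions were not equal, with an SD over all probe sets of 1.80 to 1.81 on hydrogen and 1.90 to 1.92 on control arrays. The cause of this difference was not tested. The 104 control probe sets were left out, and genes were named from GEO's platform annotation, in which 28898 probe sets have 1 symbol, 551 several and 15588 none. Here limma 3.58.1 (R 4.3.3) was fitted to all 45037 probe sets, with moderated variances, no covariates and Benjamini-Hochberg adjustment. Summaries used Python 3.11.15. The fit was tested on simulated data.

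The members and lists were chosen with earlier results of these data known. Values are given for the 8 largest called changes in each direction, genes with calls in both directions, landmark proteins, and the 3 smallest p of each list, and other members named were chosen after their values were seen. Bright means a mean log2 value above the median probe set. Alternatives covered scaling, fit, filters, the choice of probe set, and each array left out. Same-numbered arrays of the groups were checked for pairing: their deviations correlated at 0.08, 0.03 and -0.11, so the numbers were not used as pairs. The p-values set the difference between the groups against the spread between mice within a group, moderated over all probe sets. They do not cover a batch that follows the groups.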

Additional observations from a re-analysis of the deposited data

How the results depend on the processing

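The 13 higher members became 20 after renewed quantile normalisation, 7 with arrays centred on their medians, 6 without dim probe sets, 3 in a fit on the brightest probe set per gene and 5 on the mean per gene. The 57 lower members became 26 after renewed quantile normalisation, 31 after cyclic loess, 36 on the mean per gene and 74 with arrays centred on their medians. Of all probe sets 18.7% were higher and 16.8% lower after renewed quantile normalisation, and 17.0% and 18.4% after cyclic loess. Under the other alternatives the share of all probe sets called was not counted. Member counts there cannot be read as particular to the members. The median change of -0.15 was -0.038 after renewed quantile normalisation, -0.058 after cyclic loess, -0.24 with arrays centred on their medians, -0.22 without dim probe sets, -0.25 on the brightest probe sets and -0.05 less the bin medians. Centring on the median put the median of all probe sets at -0.07, against 0.02. With each array left out in turn, 9 to 13 members were higher, 47 to 58 were lower and the median change was -0.17 to -0.12. With the replicate block, which the pairing check did not bear out, 11 were higher and 53 lower. Of 696 values of the 47 named probe sets under the alternatives, 587 kept sign and call, 63 lost the call, 15 gained one and 31, at 15 probe sets, turned sign. In 23 of the 31 neither value was called, among them values of Mrpl10, Mrps12, Mrps18a, Mrps34 and other probe sets of Mrpl11. The 8 others were those of Mrpl3 (0.22 with quantile normalisation, 0.19 with cyclic loess), 1 probe set of Mrpl11 (0.18 and 0.15), Mrps30 (0.034 and 0.0045), 1 of Mrps15 (0.21 with quantile normalisation) and Mrps2 (0.042 on the mean per gene). The cause was not tested.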

Other observations

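The annotation names a member together with another gene for 6 probe sets, which entered no comparison. A probe set of Mrps6 and the inositol transporter gene Slc5a3 had 6.68 in hydrogen lungs and 7.43 in control lungs (change -0.75, limma adjusted p = 0.00242). A probe set of Mrps25 and the nuclear receptor gene Nr2c2 had 6.14 in hydrogen lungs and 6.71 in control lungs (change -0.57, limma adjusted p = 0.00294). The other 4 were not called, with changes of -0.14 to -0.01. Which of the paired genes these probe sets read was not tested.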
